A study of Mus musculus with 4 samples.

Results

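Cytotoxic lymphocytes of mouse skeletal muscle, CD8 T cells and NK cells, were followed in 4 single-cell libraries. They were chosen by their own transcripts. A barcode with at least 1000 UMIs (unique molecules counted), at least 500 genes and at most 15% mitochondrial UMIs was a CD8 member if it held at least 2 UMIs of Cd3e, Cd3d, Cd3g and Trac together and at least 1 UMI of Cd8a or Cd8b1. It was an NK member if it held at least 2 UMIs of Ncr1, Klrb1c, Klre1 and Eomes together and 0 of Cd3e, Cd3d and Cd3g. In both, Cd209a and Flt3 were at 0, and Cd79a, C1qa, Csf1r, Lum and Cdh5 summed to at most 1. This selected 209 of 28163 barcodes, 127 CD8 and 82 NK. The 1 barcode that met both conditions was counted as CD8.

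The libraries held cryopreserved mononuclear cells of quadriceps and diaphragm from WT and mdx5cv mice aged 14 weeks. The mdx5cv strain carries a mutation of the dystrophin gene and is a model of Duchenne muscular dystrophy. Each group was 1 library, from a number of animals that the labels leave out. There was thus no replicate and no test, and every interval given here is a 95% interval that covers counting error only. Where 4 values are listed they stand for quadriceps and then diaphragm of WT, followed by the same muscles of mdx5cv.

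Both cell types kill target cells by releasing perforin, which opens the membrane, and granzymes, the proteases that enter with it. CD8 T cells recognise peptide on MHC class I through a rearranged receptor and pass from a naive state that recirculates through lymph nodes to effector and memory states. NK cells carry no such receptor and read lectin-like and other receptors that signal through adaptors such as Tyrobp and Fcer1g. Both types secrete interferon gamma and the chemokines Ccl3, Ccl4, Ccl5 and Xcl1, and both have been described in dystrophic muscle.

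Of the genes described below, 3 granzyme genes and Ifng are shown by the 200 bases before their RefSeq start (GRCm38.p6, 5′ to 3′ on the gene's strand), because Gzma and Gzmk, granzyme genes on the same chromosome and strand, went opposite ways between NK and CD8 members. Capitals mark the T-box half-site TCACAC or its reverse complement GTGTGA, and the Runx core TGTGGT or its reverse complement ACCACA, motifs of factor families known from cytotoxic lymphocytes.
Gzma, chr13:113100982-113101181, minus strand: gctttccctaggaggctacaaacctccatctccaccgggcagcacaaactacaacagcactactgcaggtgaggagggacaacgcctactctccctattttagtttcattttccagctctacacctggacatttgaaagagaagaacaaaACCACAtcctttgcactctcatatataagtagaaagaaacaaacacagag
Gzmk, chr13:113180966-113181165, minus strand: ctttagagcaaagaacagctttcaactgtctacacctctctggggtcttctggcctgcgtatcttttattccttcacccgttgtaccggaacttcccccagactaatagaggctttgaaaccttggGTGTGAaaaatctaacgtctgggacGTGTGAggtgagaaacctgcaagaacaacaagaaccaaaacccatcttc
Gzmb, chr14:56262335-56262534, minus strand: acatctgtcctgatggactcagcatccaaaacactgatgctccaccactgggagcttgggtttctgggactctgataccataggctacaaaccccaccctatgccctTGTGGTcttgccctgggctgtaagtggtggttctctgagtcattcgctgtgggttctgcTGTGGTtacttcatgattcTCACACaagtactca
Ifng, chr10:118440846-118441045, plus strand: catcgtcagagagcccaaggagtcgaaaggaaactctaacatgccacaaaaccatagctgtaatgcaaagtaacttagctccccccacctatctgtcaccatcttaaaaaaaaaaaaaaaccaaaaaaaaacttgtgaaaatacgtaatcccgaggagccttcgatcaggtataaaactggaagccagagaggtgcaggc
The Gzmk window held 2 T-box matches and 0 Runx matches, the Gzma window 0 and 1, the Gzmb window 1 and 2, and the Ifng window 0 and 0. Among 32851 mouse promoter windows of this length, 9.85% held the T-box letters and 11.2% the Runx letters. These are letter matches and no binding was measured. In GENCODE on GRCm38, Gzma spans 113093825 to 113100981 and Gzmk 113171608 to 113225908 of chromosome 13, Gzmb 56258838 to 56262260 of chromosome 14, all on the minus strand, and Ifng 118441046 to 118445892 of chromosome 10 on the plus strand. The windows follow RefSeq starts, which differ from these ends for Gzmb and Gzmk. The Gzmk window lies inside the GENCODE span.

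CD8 and NK members together made up 0.224% (11 of 4911), 0.506% (38 of 7516), 0.996% (83 of 8334) and 1.04% (77 of 7402) of barcodes. CD8 members numbered 5, 28, 39 and 55. In quadriceps they were 0.102% of WT barcodes (0.0331 to 0.237) and 0.468% of mdx5cv barcodes (0.333 to 0.639), a ratio of 4.6 (1.81 to 14.9). In diaphragm they were 0.373% of WT (0.248 to 0.538) and 0.743% of mdx5cv barcodes (0.56 to 0.966), a ratio of 1.99 (1.24 to 3.27).

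NK members numbered 6, 10, 44 and 22. In quadriceps they were 0.122% of WT (0.0448 to 0.266) and 0.528% of mdx5cv barcodes (0.384 to 0.708), 4.32 times as high (1.83 to 12.4). In diaphragm they were 0.133% of WT (0.0638 to 0.245) and 0.297% of mdx5cv barcodes (0.186 to 0.45), 2.23 times as high (1.02 to 5.28). Both subsets thus took a larger share of barcodes in the mdx5cv library of either muscle, with intervals that excluded 1.

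The mix of the subsets differed between the mdx5cv muscles. There were 2.8 CD8 members per NK member (1.32 to 6.46) in WT diaphragm, but 0.75 with a 5% mitochondrial limit, under which the CD8 share there was 0.125%. There were 2.5 (1.5 to 4.31) in mdx5cv diaphragm and 0.886 (0.561 to 1.4) in mdx5cv quadriceps. In WT quadriceps the ratio was 0.833, with 11 members too few to place it (0.201 to 3.28). Between the mdx5cv libraries the CD8 share was 1.59 times as high in diaphragm (1.03 to 2.46) and the NK share 0.563 times (0.321 to 0.96). A share depends on what else was captured. Fibroblast barcodes made up 81.2% of the WT diaphragm library and 16% of the mdx5cv quadriceps library, and macrophage barcodes 1.92% and 45.3%. Of the barcodes with a UMI of Ptprc, the pan-leukocyte gene, the members were 2.49% (1.14 to 4.67), 4.75% (3.31 to 6.57), 1.45% (1.14 to 1.81) and 2.16% (1.68 to 2.73). Among these leukocyte barcodes the share was lower in mdx5cv diaphragm than in WT diaphragm, with intervals that did not overlap. In quadriceps the intervals overlapped. CD4 T cells, gated the same way with Cd4, numbered 0, 7, 27 and 38.

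**Figure D1:**
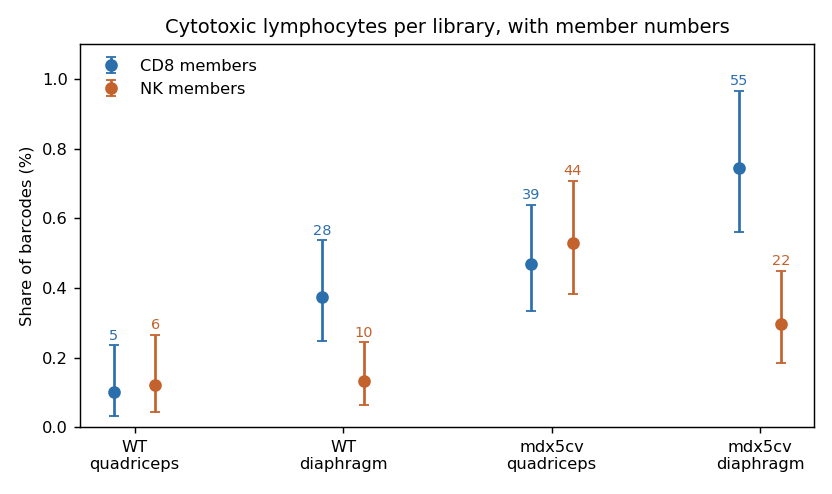
Share of barcodes (y axis, %) that were CD8 or NK members in each library (x axis), with exact 95% counting intervals and the number of members above each. CD8 members were 0.743% of mdx5cv diaphragm and NK members 0.528% of mdx5cv quadriceps, the highest of each.

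The 4 libraries held 18837891, 40226833, 62780685 and 49612759 UMIs. The members' median was 2215 to 2509 UMIs, against library medians of 2055 to 5328.5, and pairs of libraries shared 5 to 17 barcodes. Free RNA was estimated at 0.559% to 6.58% of the UMIs of the CD8 sums and 0.993% to 14.9% of the NK sums, the highest in WT diaphragm NK members. There, 1 of the 10 members, with 8203 UMIs, held 199 of the 208 UMIs of a list of 10 fibroblast genes.

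The NK label was checked on genes outside the rule. Tyrobp and Fcer1g, the adaptors of activating receptors, were found in 41 and 44 of the 44 NK members of mdx5cv quadriceps and in every NK member of the other 3 libraries. In mdx5cv diaphragm each was found in 5 of 55 CD8 members, but Tyrobp in 98.7% and Fcer1g in 99.7% of macrophage barcodes. These 2 genes thus set NK members apart from CD8 members and not from macrophages. Trac, Cd8a and Cd8b1 were at 0 UMIs in all NK members, which the rule fixes in part, since barcodes meeting both conditions went to CD8. NK members with a UMI of Trbc1 or Trbc2, the receptor beta constant genes, numbered 4, 3, 40 and 15, and those with Trdc, the delta constant gene, 0, 2, 9 and 5. Whether innate lymphoid cells of type 1 or gamma-delta T cells were among them was not tested. The perforin gene Prf1 was found in 1 of 5, 4 of 28, 3 of 39 and 8 of 55 CD8 members and in 1 of 6, 4 of 10, 19 of 44 and 6 of 22 NK members, so it alone would have missed most of both. At the edge of the rule, 0, 8, 5 and 11 CD8 members rested on a single Cd8 UMI, and 8, 129, 129 and 214 barcodes with T cell transcripts lay outside with neither Cd8 nor Cd4.

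In diaphragm, CD8 members of the mdx5cv library held more transcripts of effector genes and fewer of naive genes than those of the WT library. The question was how the cells differed with genotype. A gene was called higher or lower when its CPM (counts per 1000000 UMIs) in the summed UMIs of 1 library was at least 2 times that in the other with an interval excluding 1. This was asked of genes with at least 20 UMIs over both. Of 1244 such genes, 170 were higher in mdx5cv (13.7%) and 55 lower (4.42%). Of these 225, 209 were also called with the richest member of each sum left out gene by gene. The median log2 ratio of all genes tested was 0.22. The median CD8 member held 6.22% mitochondrial UMIs in WT diaphragm and 4.41% in mdx5cv diaphragm. With a 5% mitochondrial limit, 33 of 560 genes were higher and 23 lower, and 35 of these calls were among the 225. None turned direction. The part of cell quality in the contrast was not tested.

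Of 17 effector memory genes measured, 13 had enough UMIs and 9 were higher in mdx5cv, none lower, with a median log2 ratio of 2.09. Ccl5, a chemokine of memory and effector T cells, gave 27, 307, 1236 and 2401 UMIs in the CD8 members of the 4 libraries. The level of Ccl5 was 17122 CPM (16444 to 17821) in mdx5cv diaphragm and 4124 (3676 to 4612) in WT diaphragm, a ratio of 4.15 (3.69 to 4.69). The median member held 37 Ccl5 UMIs in mdx5cv diaphragm and 0 in WT diaphragm, where 9 of 28 members held all of them. Nkg7, a cytotoxic granule membrane gene, gave 15, 49, 323 and 426 UMIs and was 4.62-fold higher (3.43 to 6.34) in mdx5cv diaphragm.

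Ifng, the interferon gamma gene, gave 0, 2, 84 and 144 UMIs. Ifng was found in 29 of 55 members of mdx5cv diaphragm and 2 of 28 of WT diaphragm, a CPM ratio of 38.2 (10.4 to 319). Among fibroblast barcodes of the same libraries, whose median depth was 4880 and 4560 UMIs against 2252 and 2552 in CD8 members, Ifng was found in 0.103% and 0.0164%. In mdx5cv quadriceps 36 of the 84 UMIs came from 1 member. With each member thinned to 1000 UMIs, Ifng was found in 38.2% of mdx5cv diaphragm members (25.4 to 52.3) and 3.57% of WT diaphragm members (0.0904 to 18.3). Of 6 secreted effector genes with enough UMIs, 5 were higher (Ifng, Ccl3, Ccl4, Ccl5 and Xcl1). Ccl3 gave 66 UMIs in mdx5cv and 0 in WT diaphragm, 11.7-fold higher with the 0 set at a floor of 3 counts per sum. Ccl4 gave 247 and 10 UMIs, 13.1-fold (7.01 to 27.7), and Xcl1 43 and 0, 7.61-fold with the same floor.

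Gzmk, a granzyme of memory CD8 T cells, gave 0, 2, 22 and 34 UMIs in the 4 libraries and was 9.02-fold higher (2.31 to 77.5) in mdx5cv diaphragm. Gzmb gave 0, 0, 12 and 24 UMIs, 4.25-fold with the WT 0 set at the floor. Gzma gave 1, 4, 18 and 8 UMIs, the 18 all in 1 member, and Prf1 1, 4, 3 and 12, both too few for the comparison. Pdcd1, which encodes the inhibitory receptor PD-1, gave 0, 0, 12 and 17 UMIs, found in 6 of 39 and 15 of 55 mdx5cv members, and Lag3 gave 0, 0, 11 and 10.

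Naive genes were lower. Of 10 with enough UMIs, 4 were lower in mdx5cv diaphragm and none higher. Ccr7, the receptor that takes naive T cells into lymph nodes, gave 8, 65, 4 and 15 UMIs, 8.16-fold lower (4.6 to 15.4) in mdx5cv than in WT diaphragm. Lef1, a transcription factor of naive T cells, gave 6, 29, 3 and 15 UMIs, 3.64-fold lower (1.89 to 7.31). Satb1, which encodes a chromatin organiser, was 2.98-fold lower (1.74 to 5.2). Tcf7, Klf2, S1pr1 and Il7r were not called, with ratios of mdx5cv over WT of 1.23 (0.703 to 2.23), 0.951 (0.725 to 1.25), 0.575 (0.242 to 1.38) and 0.641 (0.38 to 1.09).

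The same genes were then counted per member, which restates the contrast and is no further evidence of it. With each member thinned to 1000 UMIs, effector transcripts without naive ones (Ccl5, Nkg7, Gzmk, Gzmb, Gzma, Ifng and Cxcr6 against Ccr7 and Lef1, sums selected with these values known) were found in 8 of 28 CD8 members of WT diaphragm (28.6%, 13.2 to 48.7). They were found in 46 of 55 of mdx5cv diaphragm (83.6%, 71.2 to 92.2) and 34 of 39 of mdx5cv quadriceps (87.2%, 72.6 to 95.7). Naive transcripts without effector ones were found in 8 of 28, 2 of 55 and 1 of 39. Of the 5 WT quadriceps members, 2 held naive ones, 2 effector ones and 1 both. Without thinning, effector transcripts alone were found in 17.9% of WT diaphragm and 80% of mdx5cv diaphragm members.

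**Figure D2:**
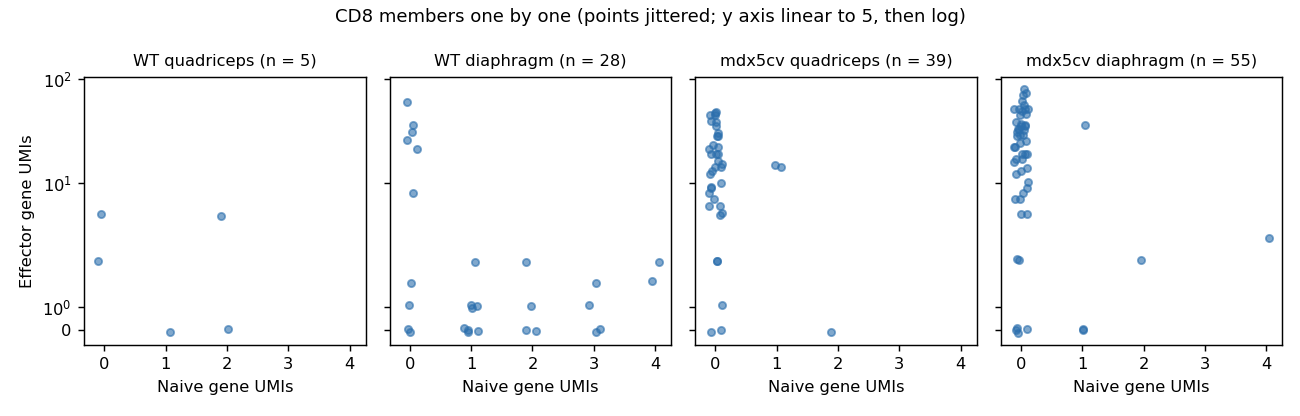
Each point is 1 CD8 member thinned to 1000 UMIs, by its UMIs of Ccr7 and Lef1 (x axis) and of 7 effector genes (y axis, linear to 5 and logarithmic above), 1 panel per library. Members of the mdx5cv libraries lie mostly at 0 naive UMIs and high effector UMIs, and those of WT diaphragm spread along both axes.

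Homing and tissue genes were also higher in mdx5cv diaphragm. Of 14 chemokine receptor and homing genes 8 were higher and 1 lower, and of 6 residency genes 5 were higher. Cxcr6, a receptor of T cells that stay in tissue, gave 2, 3, 38 and 59 UMIs, a ratio of 10.4 (3.4 to 52.1). Ccr2, a receptor for monocyte chemoattractants, gave 25 UMIs against 0 (4.42-fold with the 0 set at the floor). The residency integrin Itgae was at 0, 0, 0 and 1 UMI and Zfp683 at 0 in all 4 libraries. S100a4 and S100a6, calcium-binding proteins of activated T cells, gave 133 against 1 and 413 against 14 UMIs, ratios of 70.6 (12.5 to 2809) and 15.7 (9.23 to 28.9).

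Further groups moved with genotype in these members. Of 12 MHC class I and antigen-processing genes 5 were higher, among them the immunoproteasome subunits Psmb8 (3.33-fold, 1.75 to 6.98) and Psmb9 (7.7-fold, 1.95 to 66.6). Of 7 cell cycle genes 4 were higher, with Stmn1 at 3.98-fold (1.4 to 15.6). Of 16 immediate-early and heat-shock genes, which rise during tissue dissociation, 6 were higher. The heat-shock genes Hspa1a and Hspa1b gave 584 against 31 and 1237 against 87 UMIs, 10-fold (6.97 to 14.9) and 7.55-fold (6.07 to 9.49). In the NK members of the same libraries the Hspa1a ratio was 1.16, in CD4 cells 1.71, in fibroblasts 0.275 and in macrophages 0.399. The part of handling in these values was not tested. Tcrg-C2, a gamma chain constant gene, gave 36 against 1 UMI, with Trdc at 1 and 0.

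Of the other lower genes, Tcp11l2 (9.89-fold, 3.34 to 39.6), Rgs10, a regulator of G protein signalling (7.16-fold, 2.59 to 24.5), Dusp10, a phosphatase of MAP kinases (6.91-fold, 2.72 to 20.8), and Gch1, the first enzyme of tetrahydrobiopterin synthesis (5.65-fold, 1.95 to 19.9), had at most 22 UMIs a library. Vps37b was 2.85-fold lower (1.91 to 4.29). Of the 225 called genes, 47 were called the same way in fibroblasts and 33 in macrophages, 14 (6.22%) in both. Another 13 went the opposite way in fibroblasts and 15 in macrophages, 8 in both. CD4 cells, 7 in WT and 38 in mdx5cv diaphragm, went the same way for several effector and naive genes. Ifng gave 87 UMIs in mdx5cv and 0 in WT, and Ccl5 was 10.6-fold higher (1.81 to 427). Ccr7 was 2.67-fold lower (1.09 to 6.16) and Lef1 2.68-fold (1.24 to 5.56). S100a6 went the other way in CD4 cells, at 0.394 times (0.299 to 0.521). Free RNA was estimated at 26.5% of the WT CD4 sum. All 4 macrophage-list genes with enough UMIs were higher in CD8 members of mdx5cv diaphragm. They were Lyz2, Ctss, Ctsb and Ccr2, the last also counted above among the homing genes. Lyz2, a myeloid lysozyme gene, gave 165 UMIs against 0, of which 153 came from 1 member, and the summed list of 12 gave 275 UMIs against 7, with C1qb, C1qc, Fcgr1, Mrc1 and Spp1 at 0 in mdx5cv. Without the 1 mdx5cv member that held at least 5 UMIs of other-lineage genes, 199 of the 225 calls remained.

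**Figure D3:**
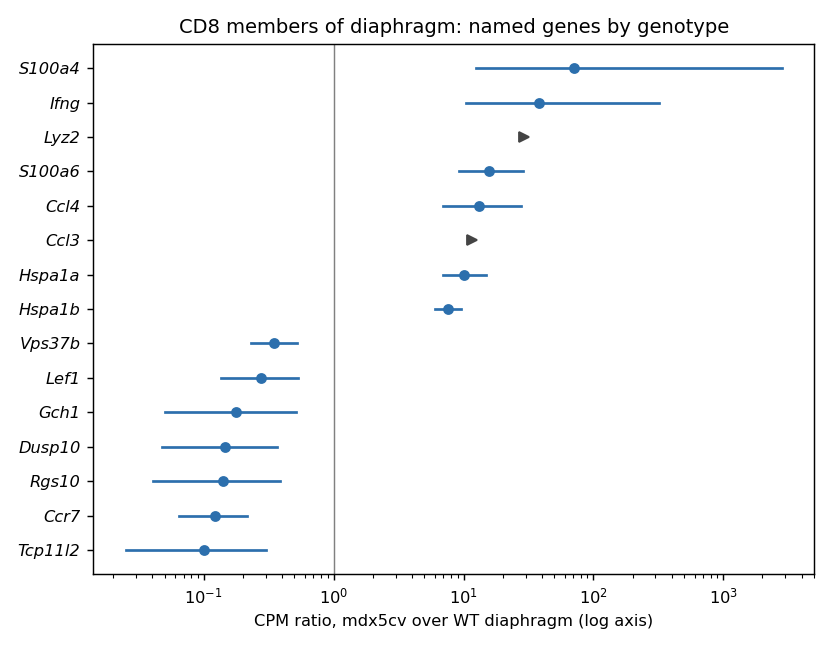
Ratio of CPM, mdx5cv over WT diaphragm, in the summed UMIs of CD8 members (x axis, logarithmic) for 8 higher and 7 lower named genes, with 95% counting intervals. Triangles mark genes at 0 UMIs in WT, set at the floor of 3 counts. S100a4 (70.6) and Ifng (38.2) lie farthest right, Tcp11l2 and Ccr7 farthest left.

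NK members of diaphragm rested on 10 WT and 22 mdx5cv cells. Of 553 genes tested, 38 were higher in mdx5cv (6.87%) and 46 lower (8.32%), and 44 of the 84 were also called without the richest member. With median-of-ratios scaling 25 were higher and 62 lower, and with each member weighted equally 79 and 63. Ccl3, Ccl4, Ccl5 and Gzmb, called higher in CD8 members, were lower here, whereas Xcl1 was not called and Gzmk had 0 and 1 UMI. Ccl4 gave 140, 309, 268 and 84 UMIs in the NK members of the 4 libraries, 8.73-fold lower (6.84 to 11.2) in mdx5cv than in WT diaphragm, and 198 of the 309 came from 1 member. Ccl3 gave 26, 78, 74 and 45 UMIs and was 4.11-fold lower (2.81 to 6.08).

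Gzma, the main granzyme of these NK members, gave 35, 238, 578 and 178 UMIs and was 3.17-fold lower (2.6 to 3.88) in mdx5cv diaphragm. Gzma was found in 9 of 10 WT and 12 of 22 mdx5cv members of diaphragm. Gzmb gave 4, 31, 49 and 29 UMIs, 2.54-fold lower (1.48 to 4.36), and Ccl5 165, 596, 874 and 698, 2.03-fold lower (1.81 to 2.26). Ifng and Xcl1 were not called, with ratios of mdx5cv over WT of 0.825 (0.494 to 1.41) and 0.825 (0.577 to 1.19). Higher genes were Rgs2 (4.15-fold, 1.91 to 10.7), Ly6e (3.16-fold, 1.51 to 7.65), the GTPase gene Rac2 (3.14-fold, 1.56 to 7.16), the transcription factor gene Cebpb (3-fold, 1.48 to 6.85) and Il2rb, a chain of the interleukin 15 receptor (2.42-fold, 1.3 to 4.91). Gem, a small GTPase gene, was 6.9-fold lower (3.39 to 15.2).

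Several other calls came from 1 cell. Igfbp5, Pi16, Krtdap and Cxcl2 were at 82, 51, 23 and 20 UMIs in 1 WT member and 0 in mdx5cv. The 4 fibroblast genes with enough UMIs were lower in mdx5cv, where that list summed to 19 UMIs against 208. Lyz2 (139 UMIs against 0) had 136 in 1 mdx5cv member. Ifi30, Serpine2 and Ccr2 were called only with the richest member kept. Leaving out the members with at least 5 UMIs of other-lineage genes (21 against 9 remained), Gzma was 4.25-fold lower (3.48 to 5.21), Gzmb 2.92-fold (1.66 to 5.11), Ccl5 2.6-fold (2.32 to 2.92), Ccl3 5.29-fold and Ccl4 11.5-fold (9.03 to 14.9), while Cebpb (1.56, 0.716 to 3.85) and Il2rb (1.89, 0.987 to 3.96) were no longer called.

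**Figure D4:**
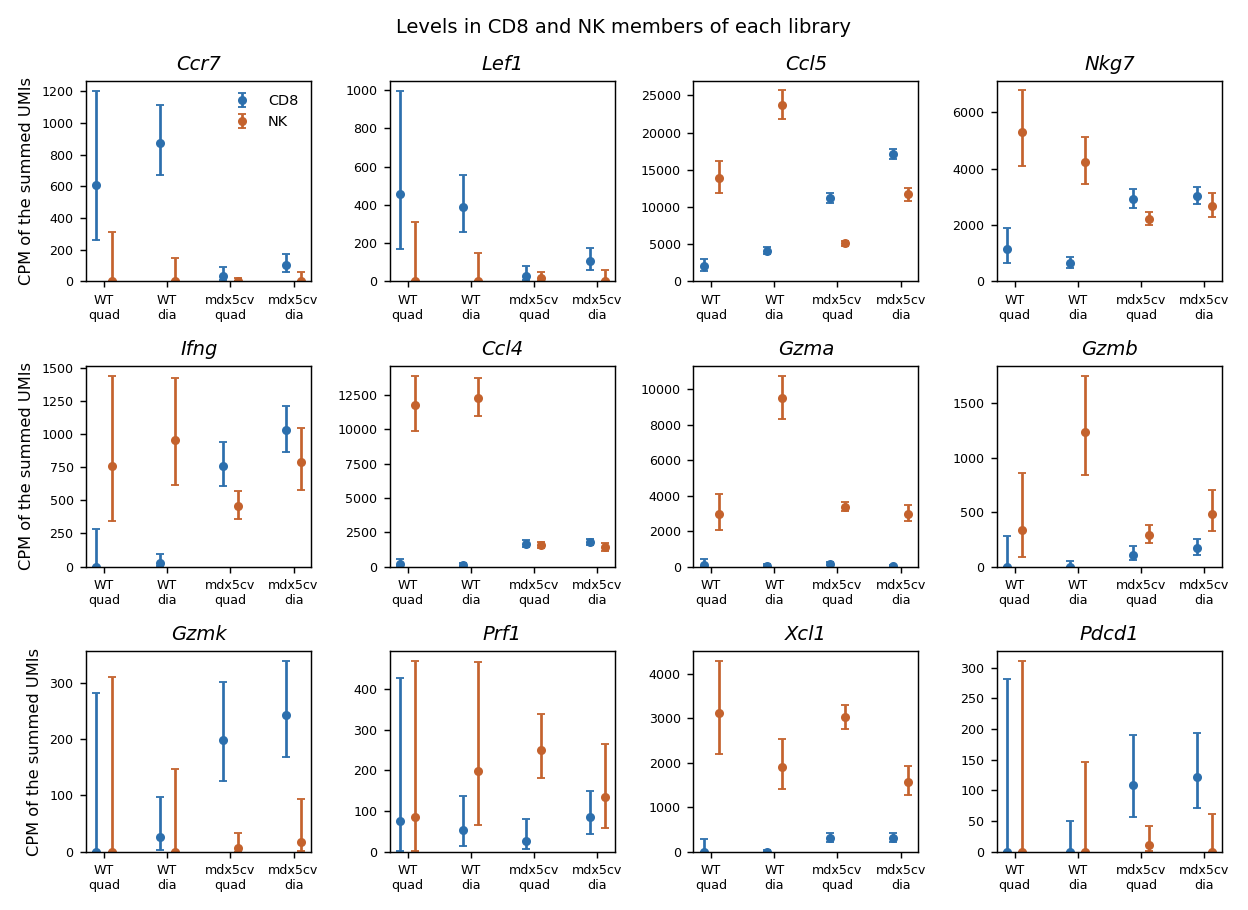
Level of 12 genes in CPM (y axes) in the summed UMIs of CD8 and NK members of each library, with exact 95% Poisson intervals. Ccr7 and Lef1 are highest in WT CD8 members, Ccl5 in CD8 members is highest in mdx5cv diaphragm (17122 CPM), and Gzma is high in NK and low in CD8 members.

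Between the muscles of mdx5cv mice, CD8 members of diaphragm held fewer cell cycle transcripts than those of quadriceps. Of 1660 genes tested, 42 were higher in diaphragm (2.53%) and 73 lower (4.4%), and 95 of the 115 were also called without the richest member. In simulated counts with no gene changed some genes were called in either direction, so that part of shares this low can come from counting error. Of 12 cell cycle genes 8 were lower and none higher, with a median log2 ratio of -1.35 against -0.10 over all genes. Mki67, a marker of cycling cells, gave 8 UMIs in diaphragm and 18 in quadriceps (2.86-fold lower, 1.18 to 7.6), Birc5 4 and 22 (6.99-fold, 2.37 to 27.9), Pclaf 11 and 53 (6.12-fold, 3.16 to 13) and Stmn1 30 and 80 (3.39-fold, 2.2 to 5.34). The transcripts sat in few members: 53 Pclaf UMIs in 7 of 39 and 11 in 3 of 55. Hmgb2, a chromatin protein gene, was 2.27-fold lower (1.66 to 3.12), but its log2 ratio turned from -1.18 to 0.24 with members thinned to 1000 UMIs. S100a6 was 2.03-fold lower (1.8 to 2.31). Stag2 (7.63-fold, 2.23 to 40.4), Ccng1 (4.83-fold, 1.74 to 16.5) and Hnrnph1 (2.88-fold, 1.64 to 5.23) were lower too.

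Higher in diaphragm were the transcription factors Satb1 (4.72-fold, 1.62 to 18.7), Id3 (7.34-fold, 2.27 to 37.7) and Tcf7 (2.47-fold, 1.33 to 4.89), 2 of them members of the naive list, in which 2 of 5 genes were called. With a 5% mitochondrial limit Satb1 turned, from a log2 ratio of 2.24 to -0.77. Ubald2 (9.44-fold, 2.34 to 82.4) and the glucocorticoid-induced gene Tsc22d3 (3.74-fold, 1.72 to 9.27) were higher as well. So were the ubiquitin gene Ubb (2.84-fold, 2.4 to 3.37) and the chaperone gene Dnajb1 (2.19-fold, 1.72 to 2.81). Ubb was also at 2.15 times the quadriceps level in NK members, 2.18 in CD4 cells, 1.59 in fibroblasts and 1.67 in macrophages. Dnajb1 was at 2.26, 1.04, 1.9 and 2.53 times in the same order. The ferritin gene Ftl1 (2.4-fold, 1.64 to 3.58), not called without its richest member, was higher too. Of 14 effector memory genes none was called higher and 2 were called lower, Gzma (2.86-fold, 1.18 to 7.6), whose 18 quadriceps UMIs came from 1 member, and Id2, a transcriptional regulator (2.03-fold, 1.53 to 2.71). Neither was called without its richest member. Ifng was at 1.35 times (1.02 to 1.79) and Ccl5 at 1.53 times (1.43 to 1.64) the quadriceps level, under the 2-fold limit. Tox, a factor of chronically stimulated T cells, was 2.01-fold lower (1.09 to 3.77). Lyz2 was higher in diaphragm (165 UMIs against 27), with 153 in 1 member.

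The NK members of mdx5cv showed the same group lower in diaphragm. Of 1710 genes, 63 were higher (3.68%) and 87 lower (5.09%), and 95 of the 150 were also called without the richest member. With each member weighted equally 90 were higher and 214 lower. Of 12 cell cycle genes 11 were lower, with a median log2 ratio of -2.34 against -0.06 over all genes. Top2a, the DNA topoisomerase of dividing cells, gave 64 UMIs in 8 of 44 quadriceps members and 0 in diaphragm, as did Pclaf (64 in 10 members). Each was 7.43-fold lower with the 0 set at the floor, with an interval starting at 5.87. Tubb5 was 11.3-fold lower (5.11 to 31.2), Tuba1b 9.15-fold (3.47 to 34.2) and Hmgb2 3.7-fold (2.49 to 5.72). Mki67 gave 1 and 26 UMIs, and Ube2c and Mcm5 0 and 33, and 0 and 25. Fibroblasts and macrophages of the same libraries were lower in diaphragm too. Pclaf was at 0.284 times the quadriceps level in fibroblasts (0.235 to 0.341) and 0.463 times in macrophages (0.401 to 0.534). Top2a was at 0.268 and 0.495 times and Tubb5 at 0.602 and 0.781 times, with intervals under 1. In CD4 cells Pclaf was at 1.57 times (0.257 to 16.5), Top2a at 1.05 and Tubb5 at 0.704, with intervals that included 1. Thinned to 1000 UMIs, at least 2 UMIs of 8 cycle genes were found in 18.2% of NK members of mdx5cv quadriceps (8 of 44, 8.19 to 32.7) and 4.55% of diaphragm (1 of 22, 0.115 to 22.8). In CD8 members they were found in 15.4% (6 of 39, 5.86 to 30.5) and 7.27% (4 of 55, 2.02 to 17.6). In both subsets the intervals overlapped, so a difference in the share of such members was not detectable. No WT member reached it. Unthinned, 9 of 44, 1 of 22, 8 of 39 and 5 of 55 did, and 1 CD8 member of WT quadriceps.

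Higher in diaphragm NK members were Klf4 (13.4-fold, 5.44 to 39.6), Cebpb (6.8-fold, 4.28 to 11.1), Phlda1 (5.26-fold, 2.88 to 9.92), the retention receptor Cxcr4 (5.17-fold, 2.26 to 12.5), the activation factor Nr4a1 (4.08-fold, 2.41 to 7.02), Tbx21, the T-box factor of NK maturation (3.13-fold, 1.26 to 7.83), and Ccl5 (2.29-fold, 2.07 to 2.53). Ccl5 was also higher in diaphragm in macrophages (2.25-fold, 2.08 to 2.42) and fibroblasts (3.79-fold, 2.44 to 6.16). In CD4 cells Ccl5 was at 0.512 times the quadriceps level (0.342 to 0.762). Without the members holding other-lineage UMIs Cebpb was 4.11-fold higher (2.44 to 7.04). Klf4 was then 8.22-fold higher (2.49 to 35) but under the 20-UMI minimum. Of 4 macrophage genes with enough UMIs 3 were higher in diaphragm, Lyz2, Ctss and Ctsb, none of them called without its richest member. That list of 12 summed to 213 UMIs in diaphragm, 170 of them in 1 member, and 209 in quadriceps, with C1qb, C1qc, Mrc1 and Spp1 at 0 in diaphragm. Its part in the other values was not tested. Gzma, Gzmb, Prf1, Ifng and Xcl1 were not called, with Xcl1 at 0.522 times (0.414 to 0.651). Ifitm3, Ifi27l2a, Serpine2 and Cst3 were called only with their richest member. Of 6 dendritic cell genes 5 were lower in diaphragm, but 1 quadriceps member held 498 of the 590 UMIs of that list.

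NK and CD8 members of mdx5cv were set side by side in each library. Both were chosen by transcripts of these cells, so the values are a description. Of 1232 genes with enough UMIs, 42 were higher in NK in both libraries (3.41%) and 20 lower (1.62%), and 56 of the 62 were also called without the richest member. Of 10 lectin-like and adaptor receptor genes 9 were higher. Tyrobp was 24.8-fold higher in quadriceps (13.7 to 50.1) and 8.81-fold in diaphragm (6.15 to 12.9), Fcer1g 14.7-fold (9.59 to 23.6) and 12.7-fold (8.68 to 19.2), and Klrk1, the NKG2D gene, 13-fold (5.4 to 41) and 4.84-fold (2.68 to 9.02). Klra4 and Klra8, Ly49 receptor genes of a family of close copies in which reads may be split, gave 53 and 50 UMIs in NK against 1 and 1 in CD8 members of quadriceps.

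Gzma was 20.7-fold higher in NK in quadriceps (13 to 35.2) and 52.3-fold in diaphragm (26 to 123), and Gzmb 2.63-fold (1.38 to 5.44) and 2.84-fold (1.6 to 5.1). Gzmk went the other way, 34.1-fold lower (5.51 to 1408) and 14.5-fold (2.42 to 588), at 1 UMI in each NK sum. Xcl1, which draws cross-presenting dendritic cells, was 9.81-fold higher (6.93 to 14.3) and 5.14-fold (3.55 to 7.56). The interleukin 18 receptor genes Il18r1 and Il18rap were 3.08-fold and 4.51-fold higher in quadriceps and 2.97-fold and 6.27-fold in diaphragm. Carbonic anhydrase Car2 (10.3-fold and 8.89-fold), Anxa1 (14.8-fold and 8-fold) and Cd7 (4.44-fold and 9.67-fold) were higher as well.

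Lower in NK were genes of T cell receptor signalling, 5 of 13: Lat (10.9-fold and 7.44-fold), Trbc2 (3.36-fold and 6.21-fold), Thy1 (2.67-fold and 3.09-fold), and Cd6 and Themis, both at 0 in NK members. Tcrg-C2 was at 35 and 36 UMIs in CD8 and 1 and 0 in NK members. The tissue receptor Cxcr6 was 2.81-fold lower (1.61 to 5.03) and 5.02-fold (2.03 to 16). Ly6a (4.79-fold and 4.93-fold), Ms4a6b (4.02-fold and 4.73-fold) and the interferon-induced Ifi27l2a (14.2-fold and 3.51-fold) were lower too. Ifng was not called, at 0.599 times (0.434 to 0.825) and 0.768 times (0.54 to 1.07).

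**Figure D5:**
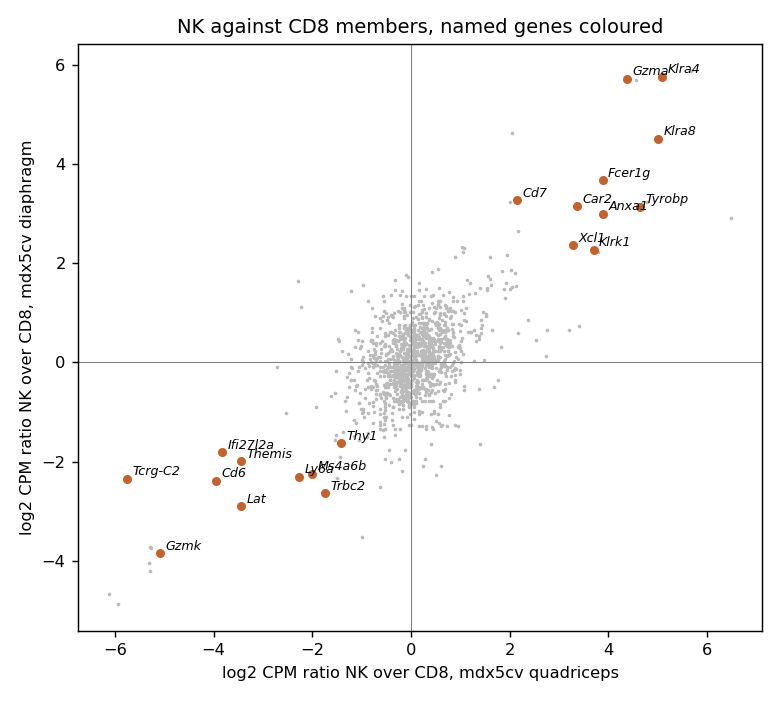
Log2 ratio of CPM, NK over CD8 members, in mdx5cv quadriceps (x axis) and mdx5cv diaphragm (y axis). Grey points are the genes with enough UMIs and coloured points the 20 named ones, with Gzma, Klra4 and Tyrobp at the upper right and Gzmk and Tcrg-C2 at the lower left.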

How the data were processed

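Mononuclear cells were profiled with 10x Genomics 3' v3.1 chemistry, 1 library per group. The deposited matrices hold unfiltered UMI counts per gene and barcode. The submitters' processing notes list Cell Ranger 5.0.0 and the mm10 build, and the matrix header gives Cell Ranger 4. No source used here names the annotation.

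Software was scanpy 1.11.5, scipy 1.17.1, matplotlib 3.10.9, pandas 2.3.3 and numpy 2.4.6 under Python 3.11.15. UMIs were summed per subset and library and divided by the sum's total (CPM). Shares have exact Clopper-Pearson intervals, CPM exact Poisson intervals and ratios exact conditional ones, all at 95% and all for counting error only. A count of 0 was set at 3 in a ratio. Free RNA was estimated from barcodes of 10 to 100 UMIs. Beyond the rule no doublets were removed, and a Scrublet alternative was run. WT quadriceps had too few members for ratios.

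The members and the 29 gene lists were chosen with earlier results of these data known. Named genes were the 8 highest and 8 lowest called per comparison by the bound nearest 1 (10 and 10 for NK against CD8), leaving out rule, mitochondrial, ribosomal, haemoglobin, predicted, Riken, Xist, Tsix and Y-linked genes and those with over 20% estimated free RNA in a sum that held UMIs. Called list members, the rule genes and Prf1, Gzma, Gzmb, Gzmk, Ifng and Pdcd1 were named besides. Some genes that this rule names are not reported here. Those named for not being called or resting on 1 member were picked after their values were seen. The call was tested on simulated data, which gave some calls with no gene changed and showed that the first median-of-ratios scaling was biased by depth. It was replaced, after results had been seen, by a median over genes with at least 50 UMIs in both sums together.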

Additional observations from a re-analysis of the deposited data

Results flagged for a closer look

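With all members kept, the genotype contrast in diaphragm went opposite ways in CD8 and NK members for 6 genes, each called in both. The difference between the subsets was not itself tested, and each value is the log2 ratio of mdx5cv over WT. Ccl4 was 3.71 in CD8 and -3.13 in NK members, Ccl3 3.55 and -2.04, Ccl5 2.05 and -1.02, and Gzmb 2.09 and -1.34. Ly6a was 4.94 and -2.93, and Cox5b 1.12 and -1.35. Without the members holding other-lineage UMIs the plain CPM ratio of Ly6a in NK members was 1.28 (0.126 to 62.8), the same direction as in CD8 members, and that of Cox5b 0.479 (0.18 to 1.35). Neither was then called.

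Between NK and CD8 members, 2 genes went opposite ways in the mdx5cv muscles, again untested as a difference. The log2 ratio of NK over CD8 was -2.30 in quadriceps and 1.65 in diaphragm for Klf4, and -1.22 and 1.44 for Bnip3l.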

How the results depend on the processing

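Of 105 named results, 36 kept their direction and call in every alternative run, 61 lost the call in at least 1, 7 gained it and 10 changed sign. Of these 10, Lyz2 and Mcm5 changed sign only through a 0 set at 3 counts. Under median-of-ratios scaling all 105 kept direction and call. That scaling moved ratios by -0.06, -0.20, -0.03 and 0.01 (log2) for genotype in CD8, genotype in NK, muscle in CD8 and muscle in NK. In the NK genotype comparison higher genes were 45.2% of the calls, 28.7% with median-of-ratios and 55.6% with members weighted equally. In NK by muscle they were 42%, weighted equally 29.6%, without each gene's richest member 25%, with no UMI minimum 63.6%, with a 5% mitochondrial limit 53.9% and thinned 53.1%. In CD8 by muscle they were 36.5%, 52.9% with 50 or more UMIs, 50.8% with the mitochondrial limit, 50% thinned and 24% with no UMI minimum.

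Numbers of called genes (genotype CD8, genotype NK, muscle CD8, muscle NK, NK against CD8) were 225, 84, 115, 150 and 62. Thinned to 1000 UMIs they were 84, 31, 30, 32 and 29, with no UMI minimum 372, 198, 304, 250 and 104, and with 50 or more UMIs 80, 31, 34, 58 and 27. With a 5% mitochondrial limit they were 56 (genotype CD8), 61 (muscle CD8), 89 (muscle NK) and 27 (NK against CD8). Weighted equally they were 142 (genotype NK), 209 (muscle CD8) and 304 (muscle NK). At 2000 UMIs NK against CD8 gave 39. Without members holding other-lineage UMIs, an alternative chosen after seeing the data, genotype NK gave 50. The remaining counts stayed within 1.5 times.

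At 2000 UMIs the CD8 share of mdx5cv diaphragm was 0.525% and the NK share of WT diaphragm 0.0577%. Thinned, CD8 was 0.446% and NK 0.176% of mdx5cv diaphragm, and NK 0.0407% of WT quadriceps. With a 5% mitochondrial limit CD8 was 0.125% of WT diaphragm, with 0.75 CD8 per NK member.

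Log2 ratios that changed sign were, for genotype in NK, Lyz2 (-1.08 without the richest member, -1.65 without other-lineage members), Ifi30 (-0.24 under stricter thresholds, -0.34 and -0.91) and Serpine2 (-0.14 thinned). For muscle in CD8 they were Satb1 (-0.77 at 5% mitochondrial), Hmgb2 (0.24 thinned) and Gzma (0.43 without the richest member). For muscle in NK they were Ifitm3 (-1.40, -0.86, -1.0) and Ifi27l2a (-1.64, -1.67, -2.13), each under stricter thresholds, without the richest member and without other-lineage members, Cst3 (0.95 without high doublet scores) and Mcm5 (0.05 at 5% mitochondrial, 1.0 thinned). Lyz2 and Mcm5 changed sign only through the 0 set at 3 counts in a ratio. Without other-lineage members Lyz2 was at 3 UMIs in mdx5cv and 0 in WT. Mcm5 was at 0 in the diaphragm NK members of mdx5cv, which no alternative here can raise. For the other genes, apart from alternatives that leave members out by construction, the cause was not tested. No paired analysis was possible because each group was 1 library.

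With 5 to 55 members per subset and library, genes under 20 UMIs over both sums gave no call, perforin in CD8 members among them.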
